A study of Arabidopsis thaliana with 12 samples.

Results

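The base calls made from tRNA-seq reads of Arabidopsis thaliana seedlings were compared between wild type and trm5-1 at every listed site except canonical position 37. Members were all sites listed in the 6 tRNA-seq libraries, 3 of wild type and 3 of trm5-1, both numbered as replicates 2, 3 and 4. Of 2830 listed sites over the 6 libraries, 2728 lay outside position 37. The whole series holds 12 samples, of which the other 6 are leaf RNA-seq and were not used. Both genotypes are in the Columbia accession, and RNA came from whole seedlings aged 10 days. The trm5-1 plants are homozygous for the T-DNA insertion SALK_022617 in TRM5 (At3g56120), a single insertion allele, and wild type plants carry no insertion. Neither the labels nor the methods give the number of seedlings pooled in a library or say whether replicates are separate growths, so that p-values measure only the spread between these libraries. Base calls on tRNAs give no measure of TRM5 mRNA or of seedling marker genes, and neither label was checked here.

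TRM5 methylates the base at position 37 of tRNAs, next to the anticodon, and makes 1-methylguanosine and 1-methylinosine there. Other enzymes modify other positions. In eukaryotes, guanosine 26 can carry 2 methyl groups on its base nitrogen, cytidine 32 can be methylated in serine and threonine tRNAs, adenosine 34 in the wobble position is deaminated to inosine, and adenosine 58 of the T loop is methylated to 1-methyladenosine. Reverse transcriptase reads inosine as guanosine, and methyl groups on the pairing face of a base make it insert wrong bases. A modified base can therefore appear in sequencing as a call that differs from the gene.

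Each deposited value is the number of copies of a base in a diploid genotype call (0, 1 or 2), not a number of reads. The depth is unknown, and a site that is not listed in a library may have had the reference base or no call. The unit of counting was the reference, 1 tRNA gene as named in the tRNA gene database, and values are numbers of references with a call in a library. References of 1 isodecoder share an identical mature sequence and can share reads. Isodecoders with 2 or more references called in some library gave 431 calls of a position in a library. Of these, 382 (88.6%) were made on all such references of the isodecoder and 29 on 1 reference, so the references were not independent observations. References never called were not counted in this share. A family is an amino acid with its anticodon. A call type is a family, a base counted from the first base of the reference, a reference base and a called base. Where references of a family have 1 canonical position at different bases, the same change makes more than 1 call type, and each is counted. Sites are given by canonical tRNA position, with the base of the gene first and the called base last, so that A58T is an adenosine at position 58 called as T. Of 2728 sites, 84 could not be given a region.

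The gene sequences below were read from TAIR10.1 as annotated by RefSeq, for the isodecoders on which the results turn. Each was matched to its isodecoder by family and listed bases, since the reference sequences themselves were not given. The match is thus inferred, and the number of genes with a sequence need not equal the number of references. Bases in capitals are those of positions 26, 32, 34 and 58 that were called as another base in at least 1 library. They are shown because the calls sit on these few bases, each in the same place of the folded tRNA.
tRNA-Lys-CTT-2: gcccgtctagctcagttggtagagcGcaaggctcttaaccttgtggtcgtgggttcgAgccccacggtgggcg
tRNA-Gly-TCC-1: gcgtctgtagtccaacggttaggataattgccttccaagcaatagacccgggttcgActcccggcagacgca
tRNA-Gly-GCC-2: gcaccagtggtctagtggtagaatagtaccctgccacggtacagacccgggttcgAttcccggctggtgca
tRNA-Pro-TGG-2: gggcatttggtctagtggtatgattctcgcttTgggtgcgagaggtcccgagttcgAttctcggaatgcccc
tRNA-Pro-AGG-2: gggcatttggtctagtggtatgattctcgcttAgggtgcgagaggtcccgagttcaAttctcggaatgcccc
tRNA-Ser-AGA-3: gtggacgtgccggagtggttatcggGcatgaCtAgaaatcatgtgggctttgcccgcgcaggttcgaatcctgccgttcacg
tRNA-Ala-TGC-1: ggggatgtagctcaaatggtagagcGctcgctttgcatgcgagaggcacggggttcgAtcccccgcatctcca
tRNA-Val-TAC-1: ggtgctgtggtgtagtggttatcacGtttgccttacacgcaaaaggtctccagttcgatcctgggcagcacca

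The tRNA-Lys-CTT-2 sequence is that of 15 annotated genes, among them AT1G01890 at chr1:309275-309347 on the minus strand. The tRNA-Gly-TCC-1 sequence is that of 12 annotated genes, among them AT1G08240 at chr1:2588525-2588596 on the plus strand. The tRNA-Gly-GCC-2 sequence is that of 14 annotated genes, among them AT1G06860 at chr1:2107398-2107468 on the minus strand. The tRNA-Pro-TGG-2 sequence is that of 34 annotated genes, among them AT1G28740 at chr1:10090368-10090439 on the plus strand. The tRNA-Pro-AGG-2 sequence is that of 9 annotated genes, among them AT1G28870 at chr1:10099425-10099496 on the plus strand. The tRNA-Ser-AGA-3 sequence is that of 20 annotated genes, among them AT1G15650 at chr1:5380907-5380988 on the plus strand. The tRNA-Ala-TGC-1 sequence is that of 9 annotated genes, among them AT1G08870 at chr1:2846536-2846608 on the minus strand. The tRNA-Val-TAC-1 sequence is that of 5 annotated genes, among them AT1G01870 at chr1:306384-306456 on the plus strand. All genes shown have 1 exon. The tRNA-Pro-TGG-2 and tRNA-Pro-AGG-2 genes differed at 2 bases, T33A and G56A as counted from the first base of the gene, which are canonical positions 34 and 57.

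The number of listed sites did not separate the genotypes. Wild type replicates 2, 3 and 4 had 417, 521 and 410 sites outside position 37, and the same replicates of trm5-1 had 512, 397 and 471. The ranges overlapped, with a wild type mean of 449 ± 62.2 and a trm5-1 mean of 460.0 ± 58.3 (SD, n = 3). The exact permutation test, two-sided throughout, gave p = 1, and 0.1 is the smallest p that 3 libraries against 3 can give. No comparison of single values could therefore pass 0.05, and genotypes are described below as not overlapping where every library of one exceeds every library of the other. The sites lay on 507 references of 167 isodecoders and 46 families, and 131 references had a site in all 6 libraries. The number of references with a site was 302, 291 and 269 in wild type against 308, 290 and 318 in trm5-1.

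Calls were gathered at 4 positions. Positions 26, 32, 34 and 58 held 83.2%, 68.5% and 70.0% of the sites of wild type replicates 2, 3 and 4 and 83.0%, 83.6% and 83.9% of those of trm5-1. All trm5-1 libraries lay within 1 percentage point of each other, and wild type replicate 2 lay among them, so the genotypes overlapped (p = 0.2, exact permutation test). Position 58 alone held 199, 222 and 153 references in wild type and 230, 215 and 233 in trm5-1. Position 34 had 57, 54 and 55 references with a call of any base against 102, 41 and 62, and position 26 had 64, 51 and 55 against 63, 47 and 68. No call was made at position 9, where guanosine or adenosine can carry a methyl group (0 references in each of the 6 libraries). This was not particular to position 9, since no call was placed at any position below 12, and the depth there is unknown. Uridines of the D arm, where dihydrouridine is made, had calls on 3 references in trm5-1 replicate 3 and on 0 in the other libraries. None of the 7 known modification positions tested had genotypes that did not overlap (percent of tests, 0). Position 9, tested for guanosine and for adenosine, and the D arm uridines had too few calls to separate the genotypes.

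**Figure D1:**
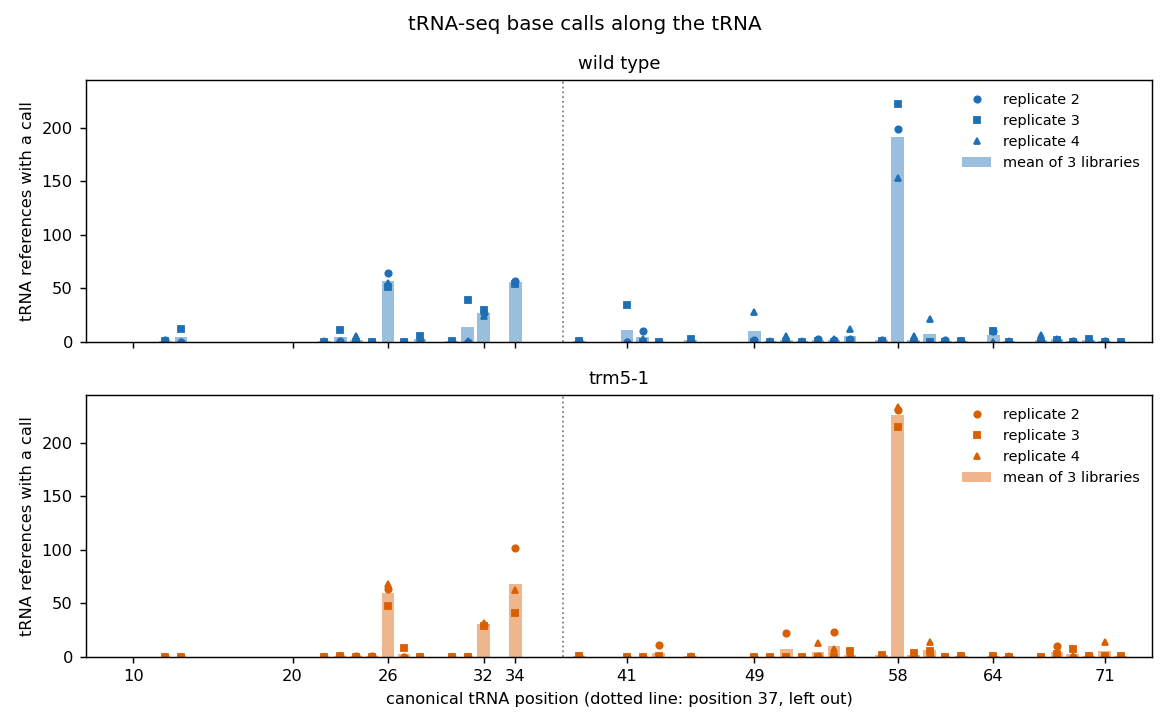
Number of tRNA references with a call (y axis) at each canonical tRNA position with a call (x axis), in wild type (upper panel) and trm5-1 (lower panel). Bars are means of 3 libraries and symbols are single libraries; position 58 stands highest in every library, from 153 to 233 references.

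Of 9 regions of the tRNA, 2 had genotypes that did not overlap (22.2% of regions). The 3′ strand of the acceptor stem had calls on 5, 5 and 10 references in wild type and on 11, 13 and 16 in trm5-1. The variable region went the other way, with 9, 9 and 16 references in wild type and 3, 4 and 5 in trm5-1. Both comparisons had p = 0.1 and an adjusted p of 0.45 over the regions (exact permutation tests with Benjamini-Hochberg adjustment). Few call types of either region were found in more than 1 library. In the 3′ acceptor strand, 14 of the 16 references of trm5-1 replicate 4 were tRNA-Gly-(GCC) G71C, 10 of the 11 of replicate 2 were tRNA-Leu-(AAG) T68C, and each of these call types was listed in 1 library. In the variable region the highest values in 1 library were 5 references of tRNA-Leu-(TAA) in wild type replicate 3 and 5 of tRNA-Met-(CAT) in wild type replicate 4, and a C called as T at base 50 of tRNA-Tyr-(GTA) was on 4 references in wild type replicate 4 and on 4 in trm5-1 replicate 3. With only the 131 references that had a site in every library, neither region separated the genotypes. The T arm had 208, 223 and 229 references in wild type and 263, 229 and 253 in trm5-1, where the highest wild type library and the lowest trm5-1 library were equal.

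**Figure D2:**
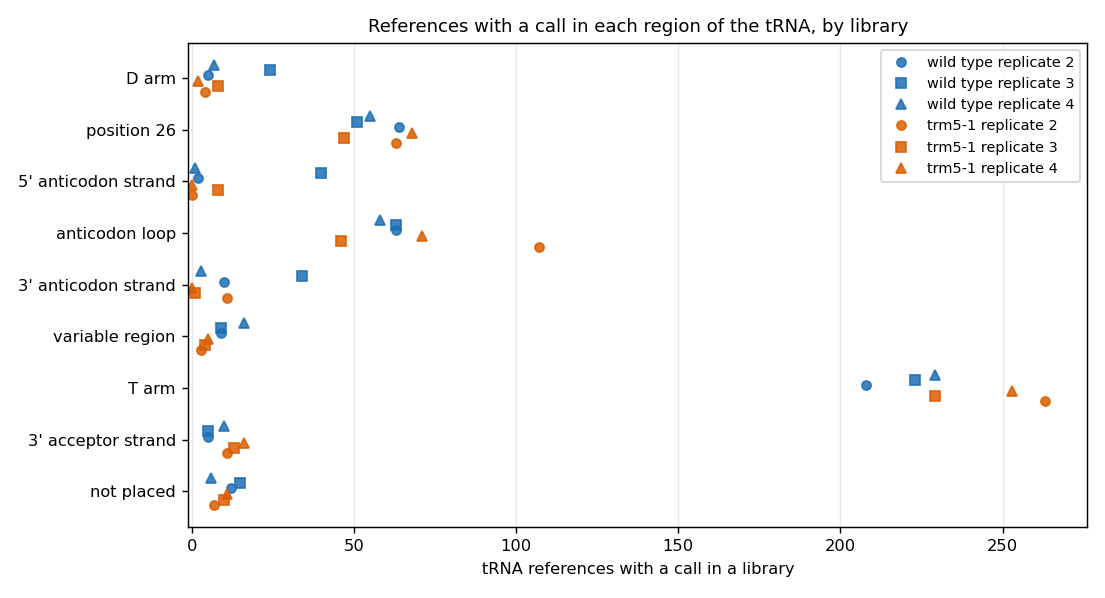
Number of tRNA references with a call in a library (x axis) for each region of the tRNA (y axis), with wild type in blue, trm5-1 in orange and a symbol for each replicate. The 3′ acceptor strand and the variable region are the 2 regions whose genotypes do not overlap, with values of 16 or fewer.

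A call type could separate the genotypes only where it was listed in all 3 libraries of 1 genotype. The 130 call types in 1 library and the 34 in 2 libraries could not, and the shares given here include them. Of 228 call types, 14 had genotypes that did not overlap (6.14%), 9 of them higher in trm5-1 (3.95%) and 5 higher in wild type (2.19%). The median difference over all 228 was 0, with 96 higher in trm5-1, 104 higher in wild type and 28 equal. By position, 7 of the 53 call types at position 58 did not overlap, 3 of 29 at position 26, 1 of 6 at position 32, 1 of 9 at position 34 and 2 of the 131 elsewhere. In the same order, 18, 12, 1, 2 and 97 of these call types were in 1 library and could not separate. The counts therefore do not compare the positions. Those 14 are described as a selection on their values, with no test as support. Counting isodecoders in place of references gave the same 14.

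The clearest difference was in lysine tRNA with anticodon CTT, at position 58. A58T was called on 16, 15 and 15 references in wild type and on 0 in every trm5-1 library. A58G was called on 0 references in every wild type library and on 15, 15 and 15 in trm5-1. The genotypes thus had the same adenosine called on the same 15 references, as T in one and as G in the other. All 15 belong to tRNA-Lys-CTT-2 and share the single sequence shown above, so each library gives 1 observation. No library of either genotype departed from this order. The exact permutation test gave p = 0.1 for each called base. Both call types were selected because their genotypes did not overlap, and that selection alone fixes p at 0.1. The p-value therefore gives no support for the difference. The calls on tRNA-Lys-CTT-2 held the called base on 1 copy and the reference base on the other; the 1 call with both copies was on another isodecoder in wild type replicate 2. The same isodecoder had G26T on 15, 0 and 15 references in wild type and on 0 in each trm5-1 library.

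**Figure D3:**
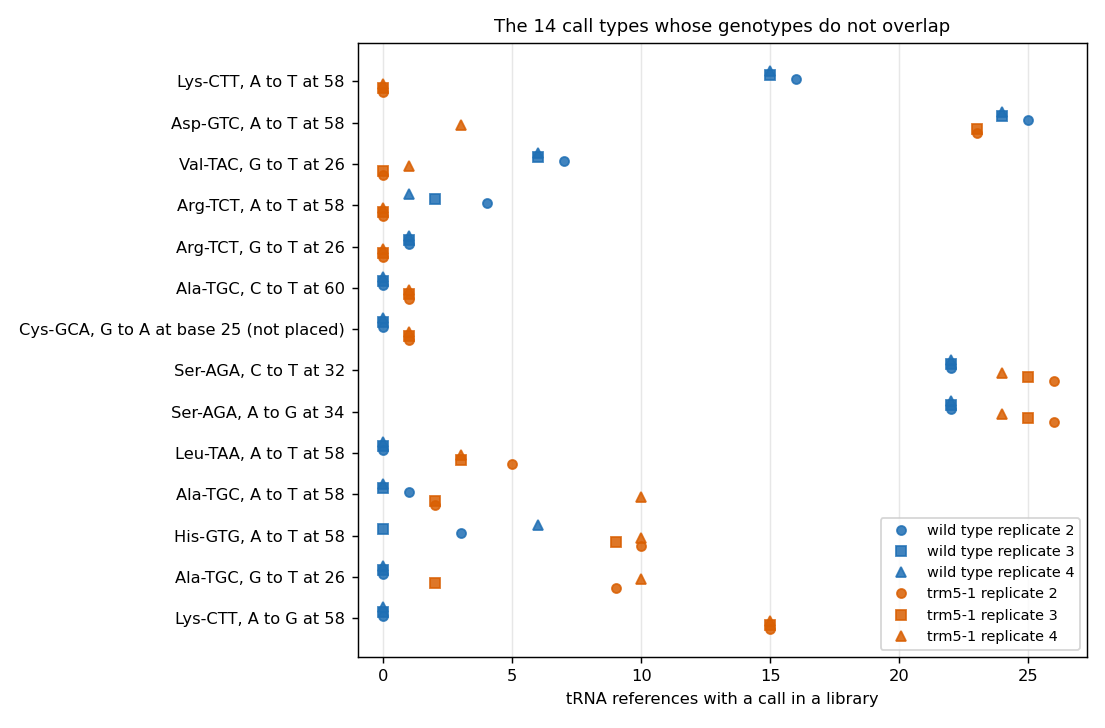
Number of tRNA references with a call in a library (x axis) for the 14 call types whose genotypes do not overlap (y axis), with wild type in blue, trm5-1 in orange and a symbol for each replicate. Lysine tRNA (CTT) at position 58 takes the top and the bottom line, with A to T at 15 or 16 references in wild type only and A to G at 15 in trm5-1 only.

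Other families differed at position 58 in the number of references called. For tRNA-His-(GTG), A58T was called on 3, 0 and 6 references in wild type and on 10, 9 and 10 in trm5-1. The 6 references of tRNA-His-GTG-1 were called in all trm5-1 libraries and in wild type replicate 4, so that 1 wild type library matched trm5-1 for this isodecoder. For tRNA-Leu-(TAA), A58T was called on 0 references in wild type and on 5, 3 and 3 in trm5-1, of which 3 in each library were the references of tRNA-Leu-TAA-2. For tRNA-Ala-(TGC), A58T was called on 1, 0 and 0 references in wild type and on 2, 2 and 10 in trm5-1, and a single library, trm5-1 replicate 4, gave the high value. Going the other way, tRNA-Arg-(TCT) had A58T on 4, 2 and 1 references in wild type and on 0 in each trm5-1 library. tRNA-Asp-(GTC) had A58T on 25, 24 and 24 references in wild type and on 23, 23 and 3 in trm5-1. There the 21 references of tRNA-Asp-GTC-2 were called in 5 libraries and not in trm5-1 replicate 4, and the other libraries differed by 2 references or fewer. As a percent of the sites of each library the genotypes overlapped for this family. Leucine tRNA with anticodon TAG had a call at position 58 on 6, 0 and 6 references in trm5-1 and on 0 in wild type, as G in replicate 2 and as T in replicate 4.

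Several families had the same calls at position 58 in both genotypes. This position had 53 call types in 35 families, 13 of them in all 6 libraries and 18 in 1 library, and made up 46.4% of all calls of references. Glycine tRNA with anticodon TCC had A58G on 12 references in every library, and in none of them on both copies. Glycine tRNA with anticodon CCC had A58T on 5 references in every library, and glutamate tRNA with anticodon TTC on 10. Proline tRNA with anticodon AGG had A58T on 15 references in 5 libraries and on 14 in trm5-1 replicate 4. Proline tRNA with anticodon TGG, the call type with the most calls, had A58T on 9, 43 and 8 references in wild type and on 43 in each trm5-1 library. Wild type replicate 3 was level with trm5-1, so the genotypes overlapped, and the step from 9 to 43 is that of 1 isodecoder, tRNA-Pro-TGG-2, with 34 references. tRNA-Gly-(GCC) had A58T on 22, 21 and 5 references in wild type and on 19, 19 and 20 in trm5-1. In wild type replicate 4 its other 14 references, all of tRNA-Gly-GCC-2, were called as G, which was listed in no other library. A change of called base on all references of an isodecoder was thus also seen within wild type.

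**Figure D4:**
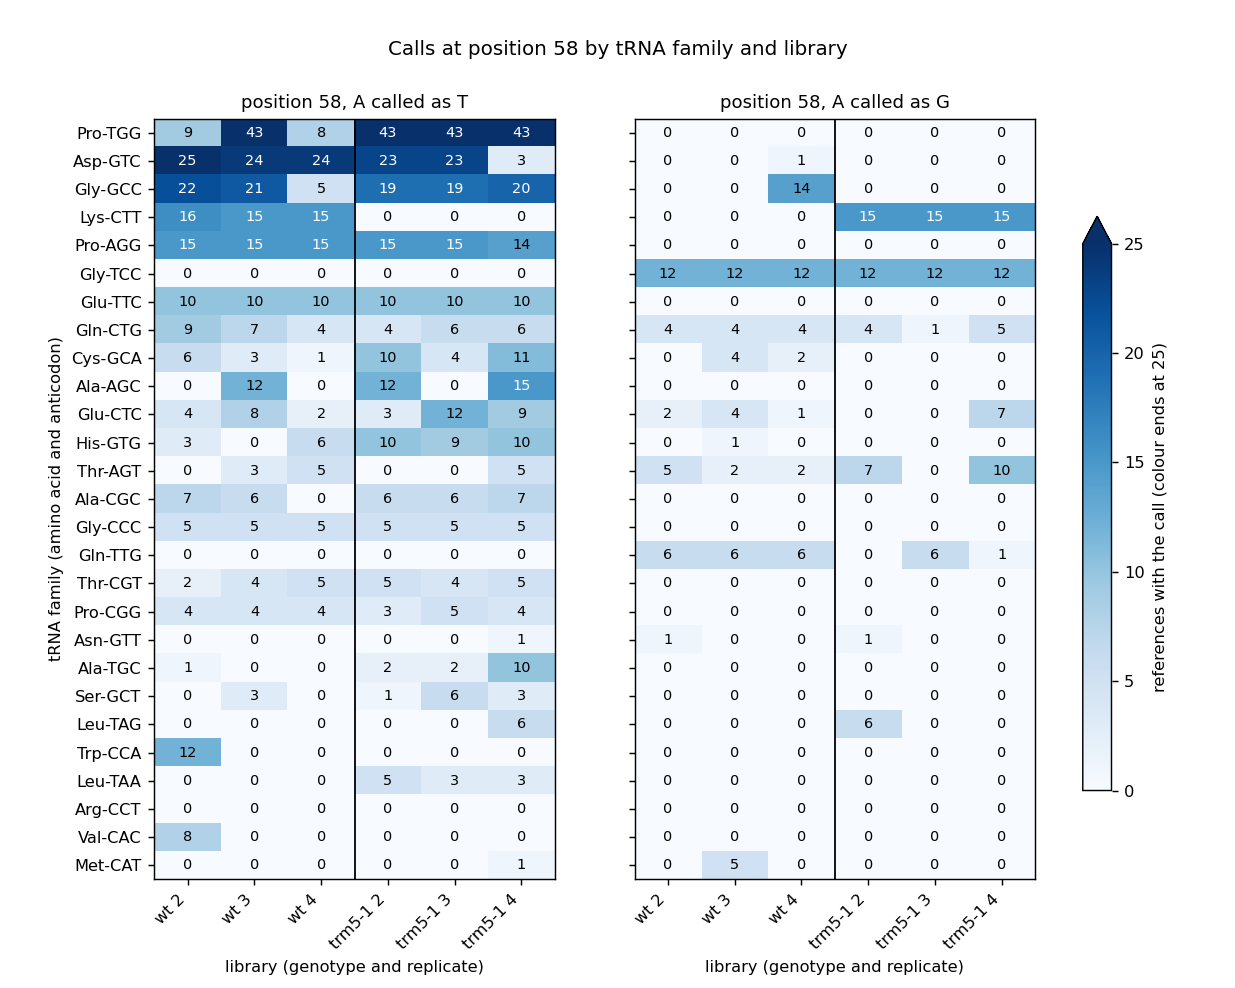
Number of references with an A at position 58 called as T (left panel) or as G (right panel), for each tRNA family with 5 or more references in some library (rows) and each library (columns; wt is wild type). The number in a cell is the value and darker blue is higher; the lysine (CTT) row moves from the left panel in wild type to the right panel in trm5-1, and the glycine (TCC) row has 12 in the right panel in all 6 libraries.

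The base called at position 58 went with the base of the gene at position 59. Where base 59 was T, as in tRNA-Pro-TGG-2 and tRNA-Gly-GCC-2, all 110 and 145 calls in wild type replicates 2 and 3 were T, as were all 146, 139 and 136 in trm5-1. In wild type replicate 4, 77 calls were T and 15 were G, 14 of which were those of tRNA-Gly-GCC-2. Where base 59 was C, as in tRNA-Gly-TCC-1, G was the most frequent call, with 23, 20 and 20 references in wild type and 19, 18 and 22 in trm5-1. There T was called on 0, 3 and 5 in wild type and on 0, 0 and 5 in trm5-1, and C on 10, 4 and 0 and on 2, 1 and 5. Where base 59 was A, most calls were T. Where it was G, T made up 87.5%, 71.9% and 94.4% of calls in wild type and 16.7%, 44.4% and 31.2% in trm5-1. The 15 references of tRNA-Lys-CTT-2, whose base 59 is G, carried this difference. Without them, T was called on 6 of 9, 8 of 17 and 2 of 3 in wild type and on 3 of 3, 12 of 12 and 10 of 17 in trm5-1. Calls whose base 59 was not the same in all matching genes, 26 as G and 46 as T over the 6 libraries, were left out. This is a description over references that share sequences and libraries, and it was not tested.

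**Figure D5:**
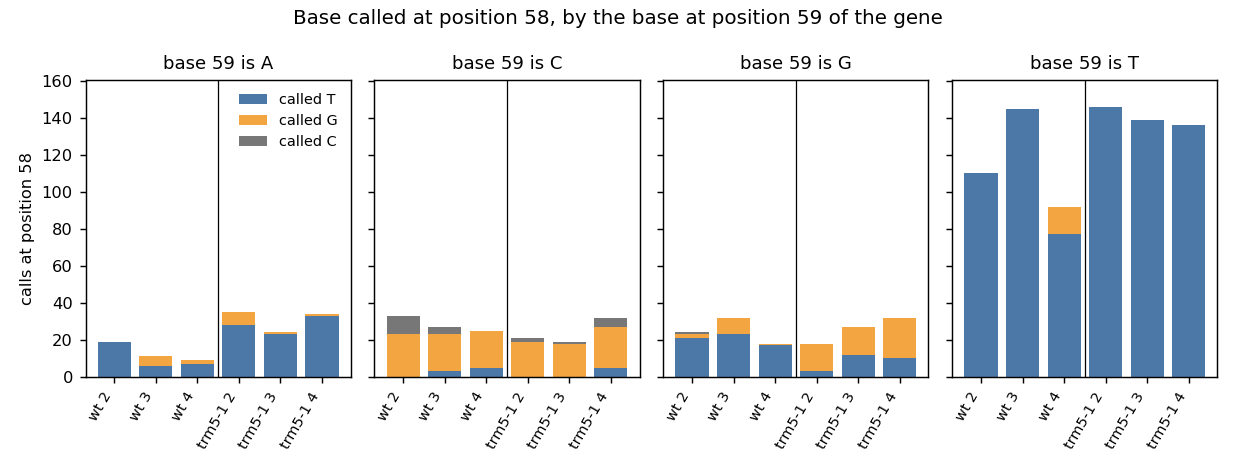
Number of calls at position 58 (y axis) in each library (x axis, where wt is wild type), by the base of the gene at position 59 (panels) and by the base called (colours). Calls whose base 59 was not the same in all matching genes are not shown. Calls are nearly all T where base 59 is T and mostly G where it is C; where it is G, the 15 references of tRNA-Lys-CTT-2 are among the T calls in wild type and among the G calls in trm5-1.

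At position 26, guanosine was called mostly as T or A. There were 29 call types in 21 families, 1 of them in all 6 libraries and 12 in 1 library. The call type listed in all libraries was tRNA-Thr-(CGT) G26T, on 2, 5 and 5 references in wild type and on 5 in each trm5-1 library. tRNA-Val-(TAC) had G26T on 7, 6 and 6 references in wild type and on 0, 0 and 1 in trm5-1. The 5 references of tRNA-Val-TAC-1 were called in each wild type library and in no trm5-1 library. tRNA-Ala-(TGC) had G26T on 0 references in wild type and on 9, 2 and 10 in trm5-1, and these came from 4 isodecoders. Of tRNA-Ala-TGC-1, the 7 references with a call in some library had G26T in trm5-1 replicates 2 and 4. They did not have it in replicate 3, whose 2 references were of other isodecoders. tRNA-Arg-(TCT) had G26T on 1 reference in each wild type library and on 0 in trm5-1. These families differed in opposite directions, and all references with a call at position 26 gave overlapping ranges (p = 0.9, exact permutation test).

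Serine tRNA with anticodon AGA was called at positions 26, 32 and 34 together. C32T and A34G were each on 22 references in every wild type library and on 26, 25 and 24 in trm5-1, which do not overlap. As a percent of the sites of each library these ranges overlapped (p = 0.6, exact permutation test). The references with a call at position 32 and at position 34 were the same ones in every library. The 20 references of tRNA-Ser-AGA-3 carried both in all 6 libraries, so the difference lay in 5 other isodecoders of 1 or 2 references. tRNA-Ser-AGA-7, for example, had both calls on 2 references in each trm5-1 library and in wild type replicate 2. The G called at position 34 of this family is also the base there of another annotated nuclear serine tRNA gene of the same length. When calls on both copies alone were counted, C32T of this family had 22, 0 and 0 wild type references against 1, 0 and 2 in trm5-1, so the direction turned over through wild type replicate 2. G26A was on 0, 22 and 22 references in wild type and on 25, 25 and 22 in trm5-1, with wild type replicate 2 alone at 0. Over all families, G26A had 9, 24 and 22 references in wild type and 27, 25 and 26 in trm5-1, which do not overlap but lie at 24 against 25 at the closest. This family made up most of it in every library except wild type replicate 2. Base changes at a position summed over families were not among the sets counted for overlap, so no result is drawn from this separation. G26T over all families overlapped, with 55, 27 and 33 against 35, 22 and 41. Other calls at position 32 were also mostly in serine tRNAs, and 4 of the 5 families with a call there were serine families. No threonine tRNA was called there.

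At the wobble position, A34G was called in 6 families. By definition, only families with an anticodon that starts with A can carry this call. Proline tRNA with anticodon AGG had it on 15 references in every library. Alanine tRNA with anticodon AGC had it on 0, 12 and 0 references in wild type and on 12, 0 and 15 in trm5-1. Its A58T calls were on the same references in each library, so each of them was called at both positions or at neither. Threonine tRNA (AGT) had A34G on 7, 5 and 10 references in wild type and on 2, 0 and 7 in trm5-1. Isoleucine tRNA (AAT) had it on 8 references in wild type replicate 4 and on 9 in trm5-1 replicate 2, and valine tRNA (AAC) on 13 in wild type replicate 2, with 0 in the other libraries. Over all families A34G was on 57, 54 and 55 references in wild type and on 64, 40 and 61 in trm5-1 (p = 1, exact permutation test). A call of A as G at base 35 of the 2 references of tRNA-Arg-ACG-7 was listed in all 6 libraries, but these references matched no annotated nuclear gene, and the base was given no canonical position. Not all calls at this position were on adenosine: T34G was called on the 34 references of tRNA-Pro-TGG-2 in trm5-1 replicate 2 and in no other library. This set raised the anticodon loop of that library to 107 references, against 46 to 71 in the rest.

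Sites away from these positions were mostly seen once. Of 131 call types elsewhere, 97 were in 1 library and 6 in all 6. Over all positions 130 of 228 call types were in 1 library, 72 of them in wild type and 58 in trm5-1, and 35 of the 130 had 5 or more references. The largest were T34G of tRNA-Pro-TGG-2 in trm5-1 replicate 2, given above, and C31T and G41A of the same isodecoder in wild type replicate 3, each on 34 references. C31T put wild type replicate 3 at 40 references in the 5′ anticodon strand against 0 to 8 in the others. G49A was on 22 references of tRNA-Ser-(AGA) in wild type replicate 4, and T54C on 22 of the same family in trm5-1 replicate 2. A T called as C at base 72 of tRNA-Tyr-(GTA), placed at position 60, was on 19 references in wild type replicate 4. Over all bases placed at position 60, this family had T60C on 0, 0 and 21 references in wild type and on 0, 2 and 1 in trm5-1. For 23 of the 131 call types elsewhere, and for 2 of the 97 at positions 26, 32, 34 and 58, the called base was that of another annotated nuclear gene for the same amino acid, of the same length, at the same base. The 16 references that matched no annotated nuclear gene could not be checked, and their calls were counted as without such a gene. One reference, tRNA-Asp-GTC-7-1, differed from the tRNA-Asp-GTC-2 gene at 3 bases, G23T, T61C and A70G as counted from the first base. The bases at 23 and 61 were called as those of tRNA-Asp-GTC-2 on both copies in all 6 libraries. The remaining call types with genotypes that do not overlap were each on 1 reference in every trm5-1 library and on 0 in wild type. They were tRNA-Ala-(TGC) C60T, which gives the base of another annotated alanine tRNA gene, and a G called as A at base 25 of tRNA-Cys-GCA-10, which matched no annotated nuclear gene.

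By family, 5 of 46 had genotypes that did not overlap (10.9% of families), each with p = 0.1 and an adjusted p of 0.92 (exact permutation tests with Benjamini-Hochberg adjustment). References with any call were fewer in trm5-1 for tRNA-Asp-(GTC) (26, 25 and 25 against 23, 24 and 4) and tRNA-Val-(TAC) (7, 6 and 6 against 0, 0 and 1). They were more in trm5-1 for tRNA-His-(GTG) (3, 1 and 7 against 10, 9 and 10), tRNA-Ser-(AGA) (22, 22 and 22 against 26, 25 and 24) and tRNA-Leu-(TAG) (0, 0 and 0 against 6, 1 and 6). Of the families with most calls, tRNA-Pro-(AGG), tRNA-Gly-(TCC) and tRNA-Lys-(CTT) hardly varied, with 15, 12 and 15 or 16 references, while tRNA-Pro-(TGG) had 10, 44 and 8 in wild type against 43, 44 and 44 in trm5-1. A call was found in all 6 libraries for 24 families and in 1 library for 2.

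Of 12 kinds of base change, 0 had genotypes that did not overlap (percent of tests, 0). A to T was the most frequent, on 165, 191 and 116 references in wild type and on 182, 183 and 193 in trm5-1 (p = 0.3, exact permutation test). A to G was on 87, 93 and 105 against 112, 80 and 107, and G to T on 77, 45 and 49 against 48, 26 and 47. C to T had 84 references in wild type replicate 3 and 29 to 34 in the others, and T to G had 34 in trm5-1 replicate 2 and 0 in the others, of which 34 in each case were those of tRNA-Pro-TGG-2.

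The share of sites with the called base on both copies varied more between libraries than between genotypes. It was 28.1%, 9.02% and 16.6% in wild type against 13.9%, 30.7% and 20.8% in trm5-1 (p = 0.7, exact permutation test). tRNA-Gly-(GCC) A58T was called on both copies on most of its references, 20, 18 and 4 in wild type against 18, 19 and 18 in trm5-1. A58T of tRNA-Pro-(TGG) was called on both copies of 42 references in trm5-1 replicate 3, but of 9 and 8 in the other trm5-1 libraries and of 1, 1 and 0 in wild type. When only calls on both copies were counted, 2 of 228 call types had genotypes that did not overlap, and 0 of these were among the 14. They were A58T of tRNA-Pro-(TGG), given above, and A58T of tRNA-Pro-(AGG), which was on both copies of 0 references in each wild type library and of 4, 4 and 14 in trm5-1. Both were chosen after their values were seen.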

How the data were processed

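Libraries were made from gel-purified RNA of 65 to 85 nt. The authors trimmed reads (Trim Galore 0.4.2), mapped them with segemehl to tRNA gene references from GtRNAdb (TAIR10) and called variants with the HaplotypeCaller of GATK 3.7 under hard filters. They deposited, for each library and listed site, the copies of each base in a diploid genotype call, a unit without depth, so that no intervals on reads could be given. Sites were placed on the canonical numbering through RefSeq tRNA genes (TAIR10.1, 625 nuclear genes) that carry the listed bases at the listed positions, where at least 80.0% of matching genes gave 1 number. Canonical position 37 was left out (102 sites). Numbers of references with a call were compared between genotypes with two-sided exact permutation tests over libraries and Benjamini-Hochberg adjustment. The scripts were tested on simulated data. Call types named are the 15 with most calls, those whose genotypes do not overlap, and those at positions 26, 32, 34 and 58 by count and range with examples. Single-library call types, base 59 and sequence comparisons were chosen after their values were seen. The members and lists were chosen with earlier results of these data known. Alternatives were calls on both copies, scaling to the sites of a library, references with a site in all libraries, counting a family and position once, a minimum of 3 references, the replicate number as a block, each library left out and, added after seeing the data, counting isodecoders. The RNA-seq tables were not used.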

Additional observations from a re-analysis of the deposited data

How the results depend on the processing

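No comparison could pass 0.05, so what can change is whether genotypes overlap. Counts of regions, base changes, families, call types and known modification positions that do not overlap were 2, 0, 5, 14 and 0. Of the 14 call types, 11 also separated the genotypes as a percent of the sites, and those that did not were A58T of tRNA-Asp-(GTC) and C32T and A34G of tRNA-Ser-(AGA). The 5 counts were 1, 0, 2, 2 and 0 with calls on both copies only, 0, 1, 0, 3 and 1 with the references that had a site in all 6 libraries, where the 0 for families follows from the filter itself, and 1, 0, 3 and 1 for regions, base changes, families and known positions when a family and position was counted once. As a percent of the sites of a library, they were 1, 0, 6, 12 and 0. The regions and families in these counts were not always those of the main setting. Of its 2 regions and 5 families, 1 and 3 were kept as a percent of the sites. With calls on both copies only, 0 and 0 were kept, and 0 and 1 when a family and position was counted once. The 3 call types kept with references of all 6 libraries were A58T and A58G of tRNA-Lys-(CTT) and A58T of tRNA-Leu-(TAA). That filter removes every reference with no site in some library, so G26T of tRNA-Val-(TAC), for example, was lost through the filter itself. A minimum of 3 references and counting isodecoders both gave the same 14 call types. Leaving out a library cannot end a separation and gave ranges of 2 to 6 regions (4 without wild type replicate 4 and 6 without trm5-1 replicate 3), 0 to 2 base changes, 6 to 10 families, 17 to 24 call types (24 without trm5-1 replicate 3 and 22 without trm5-1 replicate 4) and 0 to 2 known positions.

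With the replicate block, where an item counts if all 3 same-numbered pairs differ in one direction, 5 regions, 1 base change, 8 families, 17 call types and 0 known positions counted. The smallest p under the block is 0.25, the mean differences in sites (10.7) and in the share on both copies (3.91 percentage points) had p of 1 and 0.75 in exact sign permutations, and deviations of same-numbered libraries correlated at -0.02, -0.07 and -0.10 across 228 call types, so the numbers were not taken to pair libraries.

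The difference in sites, trm5-1 minus wild type, was 10.7. It was -8.67 with references of all 6 libraries and ran from -15.3 to 46.5 with a library left out, with negative values without wild type replicate 2 or 4 or trm5-1 replicate 2. The difference in the share on both copies, 3.91 percentage points, ran from -0.55 to 8.998, negative without wild type replicate 3 or trm5-1 replicate 3. With calls on both copies only, differences turned over for the variable region (0.33), tRNA-Ser-(AGA) as a family (-6.00) and its C32T (-6.33) and A34G (-6.00), and the family tRNA-His-(GTG) turned over (-0.67) when a position was counted once. The cause was not tested.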
